A study of Mus musculus with 3 samples.

Results

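The miR-344 genes form a cluster of related miRNA hairpins on mouse chromosome 7. The 7 hairpins described here, Mir344, Mir344b, Mir344c, Mir344d-1, Mir344d-2, Mir344d-3 and Mir344e, are 7 of 13 named Mir344 genes and 7 of 2202 miRNA hairpins in the GENCODE M21 annotation. They were chosen by name as a rodent cluster, with reads in the libraries described here already known, so their levels are given as a description and without a test. All 7 had an entry in the RefSeq table of miRNA sequences. The reads came from MIN6, an insulin-secreting cell line from a mouse insulinoma, kept in 25 mM glucose. Small RNAs of 3 replicate libraries of this 1 condition were sequenced, with 9269795, 10816006 and 10218743 mapped reads in replicates 1, 2 and 3. The methods of the study call them biological replicates, and the labels give no more than the replicate number.

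A miRNA hairpin is cut by Drosha and Dicer into a short duplex, and 1 strand, from the 5′ arm (5p) or the 3′ arm (3p), is usually kept by an Argonaute protein. The bases after the first one, the seed, pair with target mRNAs, so a shift of the 5′ start changes the seed. A change at the 3′ end, such as the addition of uridine, leaves the seed as it is. Where several genomic copies make the same mature sequence, reads alone do not tell which copy was transcribed.

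The mature sequences are shown because the family falls into seed groups, and because identical 3p sequences set how the reads were divided between hairpins. The sequences are from RefSeq (GRCm38.p6), 5′ to 3′, with the seed (bases 2 to 8) in capitals. The first pair shares 1 seed, miR-344b-3p has a seed of its own, and the last 3 share a seed although miR-410-3p comes from Mir410, a gene on chromosome 12.
miR-344-3p: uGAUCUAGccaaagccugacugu
miR-344c-3p: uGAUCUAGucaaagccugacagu
miR-344b-3p: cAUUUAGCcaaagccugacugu
miR-344d-3p: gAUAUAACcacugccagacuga
miR-344e-3p: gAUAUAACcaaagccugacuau
miR-410-3p: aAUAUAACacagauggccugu
On the 5p arm, 5 mature sequences of the 7 hairpins share 1 seed, miR-344d-2-5p differs from them within it, and miR-344e-5p has another. The following 3 are shown because they are the parts in which the Mir344d copies differ.
miR-344d-1-5p: aGUCAGGCugcuggcuauacacca
miR-344d-2-5p: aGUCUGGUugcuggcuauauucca
miR-344d-3-5p: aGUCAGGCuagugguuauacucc

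Positions below are counted from 1 at the 5′ end of the sequence named first. miR-344-3p and miR-344c-3p had 21 of 23 bases in common and differed by C9U and U21A, both outside the seed. From base 2 of miR-344-3p on, miR-344b-3p had 20 of 22 bases in common with it and differed by G2C and C5U. The missing first base of miR-344b-3p thus moves its seed along the shared sequence. miR-344d-3p was the most distant, with 16 of 22 bases in common with miR-344-3p from base 2 on. miR-344e-3p had 17 of 22 bases in common with miR-344d-3p, and all 5 differences, C11A, U12A, A16U, G21A and A22U, lay after the seed. It had more bases in common with miR-344-3p from base 2 on, 19 of 22, and with miR-344b-3p, 18 of 22.

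The hairpins were found in the deposited alignments by sequence. A base that mismatching reads carry at a position cannot be the genomic base there, and the excluded bases were compared with the hairpin sequences in bits. Of 20 hairpins that GENCODE lists on the minus strand around the members, placed between 68818715 and 69230196 in the files, 7 reached 20 bits at the same mutual distances as in the annotation, among them Mir344 with 29.3 bits and Mir344d-1, Mir344d-2 and Mir344d-3 with 30.5, 31.1 and 34.8 bits. Mir344b, Mir344c and Mir344e, with 8.3, 5.3 and 0.4 bits, were placed by their distance from these. None of 234 positions with an excluded base in the 20 hairpins contradicted the placement (0 conflicts). For the 7 hairpins at 20 bits this was a condition of the placement, and copies count the same shared reads again. Mir344b, Mir344c and Mir344e, where a conflict was possible, had only 12, 10 and 1 such positions. Mir344e rests almost wholly on distance. In the build of the files (mm9), the 7 hairpins spanned 194741 bases, chr7:68828010-69022750. In the GENCODE annotation of GRCm38, Mir344d-3, Mir344e, Mir344b, Mir344c and Mir344 lay in introns of the lincRNA A230057D06Rik on the same strand, and Mir344d-1 and Mir344d-2 lay in no other annotated gene. Within the span of the 7 hairpins, 99.4% of the 8520 reads on the minus strand started in the listed hairpins, and the plus strand held 2.24 reads over the 3 libraries.

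Levels are in RPM, that is, reads scaled to 1000000 mapped reads per library, with a read that aligned equally well to several loci divided between them. The 7 hairpins together had 2149, 2118 and 2013 divided reads in replicates 1, 2 and 3, or 232, 196 and 197 RPM. The mean was 208 ± 20.4 RPM (SD, n = 3), with replicate 1 the highest. For scale, Mir375, a well-known miRNA gene of the beta cell, had 345184, 368905 and 383022 RPM, 1756 times the family's mean. Among the placed hairpins outside the cluster, 3 were nearest to the family's level. They were Gm47295 with 207 ± 15.2 RPM, Mir328 with 207 ± 13.8 RPM and Gm47299 with 206 ± 15.4 RPM (SD, n = 3). Gm47295 and Gm47299 were nearly equal in each library, with 222, 191 and 209 RPM against 221, 190 and 208 RPM. Whether these hairpins, or others outside the cluster, hold the same reads was not tested. Of 205 hairpins outside the cluster that were placed at 1 position, 119 had a higher mean than the 7 hairpins summed. These comparisons leave the family's reads divided. With each family read counted once and in full, an alternative chosen after seeing the data, the family had 353 RPM, 97 of the 205 hairpins were above it, and Mir375 had 1035 times its level, while the reads of the other hairpins were left as divided.

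Mir344 was the most abundant hairpin, with 72.3, 54.6 and 58.0 RPM in replicates 1, 2 and 3 (61.7 ± 9.37, SD, n = 3). Mir344d-3 had 47.5, 43.9 and 43.0 RPM (44.8 ± 2.38). Mir344d-2 had 44.8, 41.4 and 39.6 RPM (41.9 ± 2.62). The lowest library of Mir344 was above the highest of Mir344d-3, whereas the values of the 3 Mir344d hairpins overlapped. Mir344d-1 had 44.2, 40.96 and 39.3 RPM (41.5 ± 2.51). Mir344b had 11.1, 7.70 and 9.49 RPM (9.43 ± 1.70). Mir344c had 11.6, 7.09 and 7.54 RPM (8.73 ± 2.47). Mir344d-1 was thus above Mir344b with no overlap, and Mir344b and Mir344c overlapped. The gap between Mir344d-1 and Mir344b depended on the division, with means of 13.9 and 9.32 RPM for whole-number values and of 207 and 9.54 RPM with the reads of every identical copy added. With exact alignments only, per 1000000 exact reads, Mir344b had 5.55 and Mir344c 8.50, so their order turned. Mir344e had 3, 2 and 0 reads, and a count of 0 in replicate 3 allows up to 3 reads or 0.294 RPM. It was the lowest in every library, and its level rested on 5 reads, all at its reference 3p start.

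**Figure D1:**
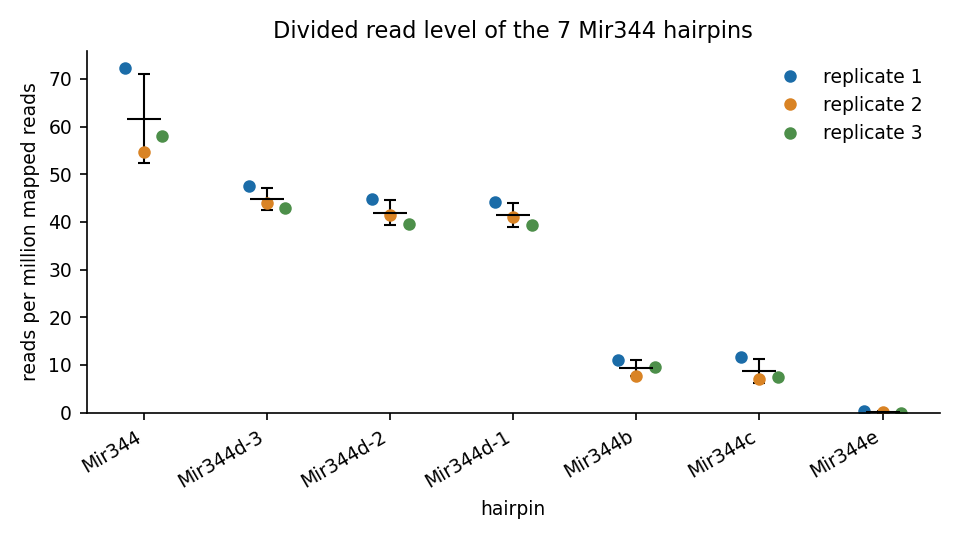
Divided reads in RPM of all mapped reads (vertical axis) of each of the 7 hairpins (horizontal axis), with a point for each replicate and the mean ± SD (n = 3) as bar and whiskers. Mir344 lies at 61.7 RPM, the 3 Mir344d hairpins lie between 41.5 and 44.8 RPM, Mir344b and Mir344c near 9 RPM, and Mir344e near 0.

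These levels depend on the division of reads between copies. Rows with the same read length, mismatches, underlying sequence and value stood at 5 loci for miR-344d-3p, namely Mir344d-1, Mir344d-2, Mir344d-3 and the GENCODE hairpins Gm23962 and Gm23490, which are not among the named genes. They stood at 2 loci for miR-344-3p, Mir344 and Mir344-2. In all, 88.9%, 91.0% and 89.6% of the family's divided reads in replicates 1, 2 and 3 had such a twin at another hairpin of the cluster. For Mir344d-1 and Mir344d-2 the share was 100% in every library, and for Mir344 it was at least 99.8%. It was at most 0.687% for Mir344b, and it was 0 for Mir344c and Mir344e.

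The whole-number rule marks a read as having 1 locus when its value is whole within 1e-06. By that rule, 57.4% (95% Wilson interval 55.3 to 59.5), 42.3% (40.3 to 44.5) and 39.0% (36.9 to 41.2) of the family's reads had 1 locus, a mean of 46.3 ± 9.77% (SD, n = 3). By the absence of a twin, the share was 10.2 ± 1.05%. A set of 5 identical reads divided between 5 loci also gives a whole number, so the second value is the closer one for reads of a single copy. All reads of a row pass or fail the whole-number rule together, so the Wilson intervals above do not measure the error of that share. Twins were sought only among hairpins of the cluster, and some reads without a twin had values that were not whole. In Mir344c, without any twin, 97.8% of the reads in replicate 2 had whole-number values. Intervals and limits from counts cover counting error only.

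**Figure D2:**
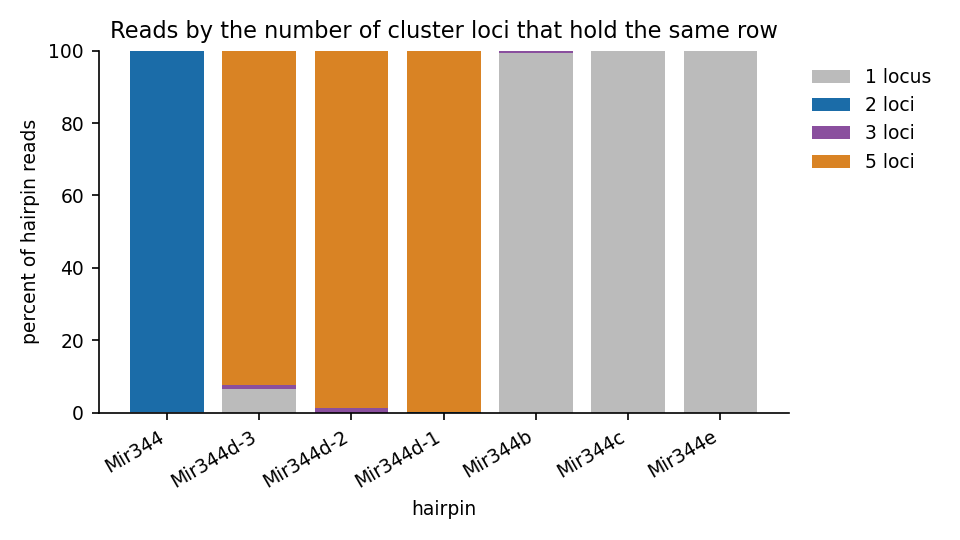
Percent of each hairpin's reads, summed over the 3 replicates (vertical axis), by the number of loci in the cluster that hold an identical row (colours). Mir344d-1, Mir344d-2 and most of Mir344d-3 are shared by 5 loci, Mir344 is shared by 2 loci, and Mir344b, Mir344c and Mir344e are read almost wholly at 1 locus.

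Summed over copies, miR-344d-3p had 2062, 2219 and 2014 reads at its reference start, or 222, 205 and 197 RPM (208 ± 12.96, SD, n = 3). miR-344-3p had 1300, 1140 and 1154 reads over Mir344 and Mir344-2, or 140, 105 and 113 RPM (120 ± 18.3). Per mature miRNA, miR-344d-3p was therefore above miR-344-3p in every library, the opposite order to that of the single hairpins. Of the starts that together held 98% of the reads in placed hairpins, the least abundant had 1357, 1657 and 1528 reads in replicates 1, 2 and 3. A single copy of miR-344d-3p had 409, 441 and 401 reads at Mir344d-1, below that limit, and the sum over copies was above it in all 3 libraries. miR-344-3p was below it also when summed. The limit comes from starts counted per locus, with other miRNAs of several copies left divided, so it is not on the same scale as the sums.

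The copies of Mir344d differed in few reads. The 5p reads stood at Mir344d-3, whose reference 5p start had 23, 27 and 31 reads, each with no twin. miR-344d-1-5p and miR-344d-2-5p had 0 reads at their reference starts in all 3 libraries, which allows up to 3 reads each per library. Beyond the mature sequence, where the 3′ flanks differ, Mir344d-2, Mir344d-3 and Gm23490 each had 16 divided reads over the 3 libraries, mostly of 24 nt, and Mir344d-1 and Gm23962 each had 3. The share of each copy in the remaining miR-344d-3p reads cannot be told apart.

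Reads of the family came almost wholly from the 3p arm, taken as all bases after the centre of the hairpin. The share was 98.8% (95% Wilson interval 98.2 to 99.2), 98.5% (97.9 to 99.0) and 98.2% (97.6 to 98.7) in the order of the replicates (98.5 ± 0.263%, mean and SD, n = 3). Mir344d-3 had the highest 5p share of the members, with 3p shares of 94.3%, 94.1% and 92.3%. These shares set its 25, 28 and 34 5p reads, which had no twin, against divided 3p reads. Over all 5 copies, the shared 3p reads came to 2047, 2211 and 2001, so the 5p share depends on the division. For Mir344d-1, Mir344d-2, Mir344b and Mir344e no 5p read was seen. The 5p arm of Mir344 held 1.5, 3.25 and 0.417 divided reads in replicates 1, 2 and 3. They began at 3 positions, 69022728, 69022707 and 69022704, and none at the reference 5p start. These positions lay 2, 23 and 26 bases downstream of it, and miR-344-5p is 26 nt long. Reads from the last 2 positions thus began near or past its end, and count as 5p only by the centre of the hairpin. The 5p arm of Mir344c held 1 read in replicate 3, at position 68982273.

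The 5′ starts were nearly uniform. Over the 3p arms, 98.6% (98.004 to 99.02), 98.6% (98.006 to 99.03) and 98.8% (98.2 to 99.2) of reads began at the most abundant start of their arm, a mean of 98.7 ± 0.0917% (SD, n = 3). In each of the 7 hairpins this was the reference start. On chromosome 7 of mm9 it lay at 68828034 in Mir344d-1, 68830186 in Mir344d-2, 68871163 in Mir344d-3, 68880446 in Mir344e, 68935429 in Mir344b, 68982231 in Mir344c and 69022690 in Mir344. The 5p start of Mir344d-3 lay at 68871204 and held 93.1% of its 5p reads. Only 1 other 3p start held at least 5% of an arm, that of Mir344c 1 base downstream at 68982230, with 5, 5 and 4 reads (5.48 ± 0.951%, SD, n = 3). Its seed, AUCUAGU, is not that of any other 3p sequence shown here.

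Length differed between the mature miRNAs and little between libraries. At the reference start, miR-344d-3p at Mir344d-3 was read as 22 nt in 60.8%, 60.5% and 59.8% of reads and as 21 nt in 33.0%, 32.8% and 33.7%. miR-344b-3p was 22 nt in 57.3 ± 3.32% and 23 nt in 31.2 ± 3.03% of reads (SD, n = 3). miR-344c-3p was 23 nt in 73.0 ± 1.85%, and miR-344-3p at Mir344 was 23 nt in 67.5 ± 1.68%. The pair that shares a seed and starts 1 base earlier was thus also 1 base longer than the other pair at its most frequent length. Reads of 18 to 25 nt made up 99.8 ± 0.0906% of the family's reads.

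**Figure D3:**
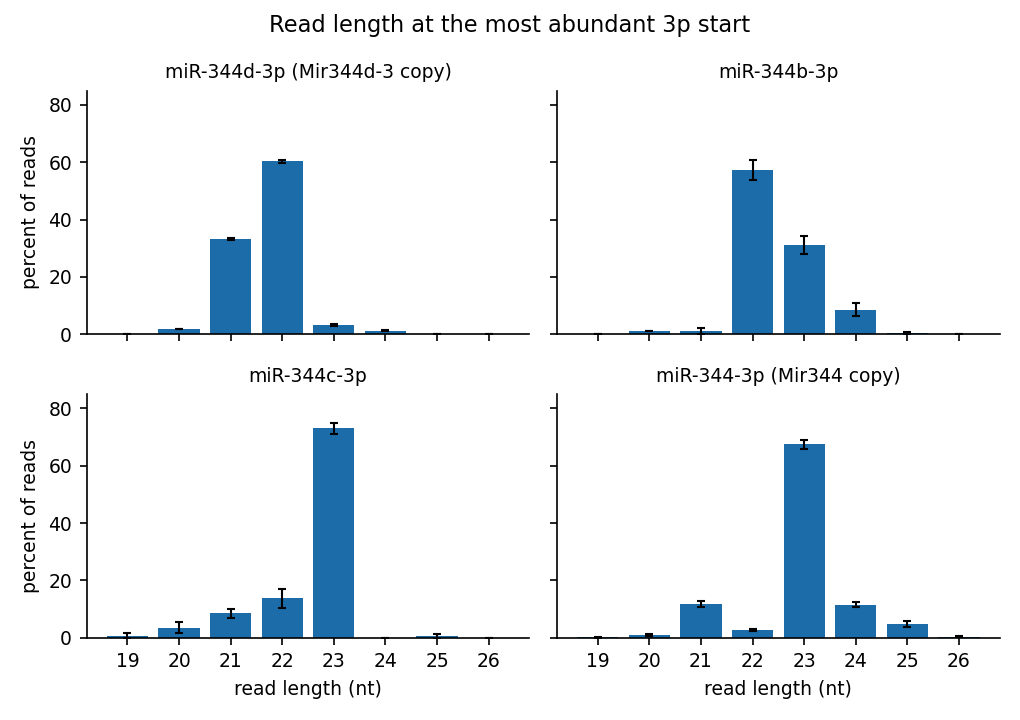
Percent of reads (vertical axis) by read length in nt (horizontal axis) at the most abundant 3p start of 4 mature miRNAs, as mean and SD of the 3 replicates. The most frequent length is 22 nt for miR-344d-3p and miR-344b-3p and 23 nt for miR-344c-3p and miR-344-3p, and miR-344-3p has a separate, smaller peak at 21 nt (11.9%, against 2.69% at 22 nt).

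A mismatch that reaches the last base of a read marks a 3′ end that is not in the hairpin. Such ends made up 19.7% (95% Wilson interval 18.04 to 21.4), 21.6% (19.9 to 23.4) and 19.7% (17.997 to 21.5) of the family's reads, a mean of 20.3 ± 1.10% (SD, n = 3). In all placed hairpins without Mir375 the share was 10.5 ± 0.182%, lower than the family's in every library. Among family reads with whole-number values, of which most are shared between copies too, the share was 10.6%. A shared row is whole only where its count divides by the number of loci, which rows of few reads seldom meet. The 10.6% is therefore not the share among reads of a single copy, and it is not comparable with the share in all placed hairpins. The ends were mostly 1 uridine. For miR-344b-3p, 23.2%, 20.5% and 25.3% of reads ended in 1 mismatching uridine, and 6.56 ± 2.15% in 2. For miR-344d-3p at Mir344d-3 the shares with 1 uridine were 20.4%, 21.2% and 19.6%, and for miR-344-3p they were 9.08%, 10.4% and 10.4%, with 4.59 ± 0.966% ending in 2. miR-344c-3p stood apart, with 1 uridine in 0%, 1.88% and 0% of its reads, although it differs from miR-344-3p at only 2 of 23 bases.

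Of the uridine-ended reads of miR-344d-3p, 92.7% were 22 nt long, and they made up 31.4% of all its reads of that length. The reference has no uridine at base 22 there, so these reads cover its first 21 bases and end in 1 uridine more. Mismatches further inside the read were allowed. For miR-344-3p, 94.96% of the uridine-ended reads were 24 nt long. A uridine added where the hairpin itself has one, as at base 23 of miR-344-3p and miR-344c-3p and base 22 of miR-344b-3p, is not seen as a mismatch and is not in these shares.

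**Figure D4:**
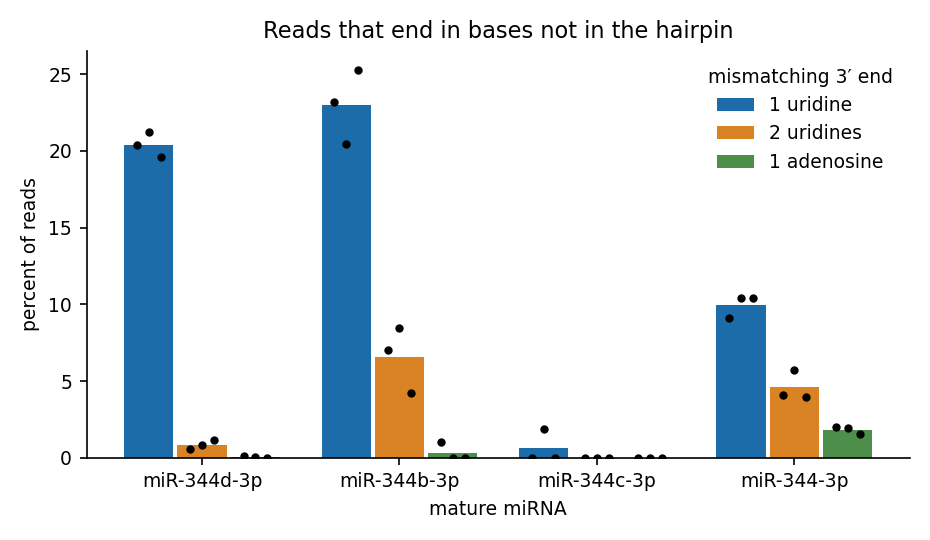
Percent of reads at the most abundant 3p start (vertical axis) that end in 1 uridine, 2 uridines or 1 adenosine not in the hairpin, for 4 mature miRNAs (horizontal axis), with bars for the mean of 3 replicates and a dot for each replicate. The means for 1 uridine are 20.4% for miR-344d-3p, 22.97% for miR-344b-3p, 0.626% for miR-344c-3p and 9.97% for miR-344-3p.

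Mismatches inside the reads were frequent, and the most frequent kind was a cytosine read at a reference adenosine. The next kind was rarer, with C9A in 1.013%, 1.56% and 1.12% of miR-344d-3p reads at Mir344d-3. In miR-344d-3p at Mir344d-3, A10C was found in 15.5%, 14.3% and 18.5% of reads and A6C in 8.38%, 8.07% and 8.26%. In miR-344-3p, A12C was found in 16.4%, 18.3% and 17.3% of reads and A11C in 5.62%, 7.19% and 6.41%. In miR-344c-3p, A12C was found in 17.6%, 21.1% and 15.3% of reads and A11C in 2.93%, 5.63% and 9.72%. miR-344b-3p, which has adenosine at 4 of these positions, had A10C in 11.3 ± 4.36%, A12C in 9.79 ± 0.933%, A6C in 8.69 ± 1.18% and A11C in 4.30 ± 0.858% (SD, n = 3).

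The same substitution was also found at the same read positions in other miRNAs. In 289 arms of hairpins outside the cluster, each with at least 300 reads at its most abundant start, the median share of reads with cytosine at a reference adenosine was 18.3% at position 12 (64 arms), 12.1% at position 10 (63 arms), 8.96% at position 6 (62 arms), 7.63% at position 11 (49 arms) and 2.83% at position 9 (51 arms). At position 7 it was 0.434%, and at position 8 it was 0.0529%. With the Mir344d copies counted once, 10 of 11 family values at positions 6, 10, 11 and 12 were within the range of the other arms, which was wide. A12C and A11C in miR-344b-3p were below the lower quartiles of 15.96% and 5.21%, and A10C in miR-344d-3p was above the upper quartile of 14.4%. The exception was A10C in miR-344d-3-5p, at 17.5 ± 4.66%, against a highest value of 17.2% elsewhere, and it rests on 81 reads. At the other positions among the first 16 of the read, the positions compared, the family's adenosines were read as cytosine in at most 0.354% of reads as a mean over the 3 libraries. The substitutions in the family were thus found at the same read positions as elsewhere. Position 6 lies within the seed, so A6C reads carry a changed seed in the files. The base qualities at these read positions were not checked, and the source of the substitution was not tested.

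**Figure D5:**
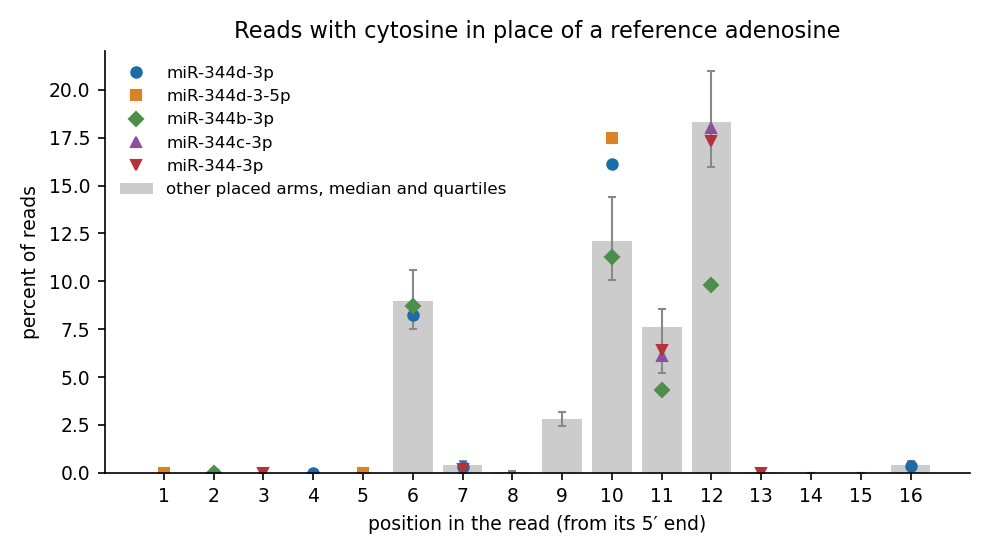
Percent of reads with cytosine at a reference adenosine (vertical axis) by position in the read from its 5′ end (horizontal axis), as mean of 3 replicates for 5 mature miRNAs of the family (symbols), and as median with quartiles over arms outside the cluster (grey bars). Both are high at positions 6, 10, 11 and 12 and close to 0 at positions 1 to 5 and 13.

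Among all mature mouse miRNAs in the RefSeq table, miR-410-3p was the only one outside the Mir344 genes with the seed of a member arm. It had 747, 640 and 641 RPM at its reference start (676 ± 61.5, SD, n = 3). This was 3.36, 3.12 and 3.25 times the sum of miR-344d-3p over its copies (3.24 ± 0.1198). The seed group of miR-344d-3p and miR-344e-3p had 208 ± 13.1 RPM, and that of miR-344-3p and miR-344c-3p had 128 ± 20.7 RPM, with lowest and highest libraries of 197 and 223 RPM and of 112 and 151 RPM, so the groups did not overlap. miR-344b-3p, alone in its seed group, had 9.23 ± 1.52 RPM. The 5p seed shared by 5 sequences of the 7 hairpins and by miR-344g-5p had 2.94 ± 0.275 RPM, nearly all of it from miR-344d-3-5p.

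The 6 other named Mir344 genes fell into 3 kinds. Mir344-2, the second copy of miR-344-3p, had 72.3, 54.5 and 57.9 RPM, almost all of it from reads shared with Mir344. Mir344g had 14.4, 10.4 and 11.3 RPM (12.03 ± 2.10, SD, n = 3), but no read began at its reference 3p start. Its 3p reads began 4, 5, 6 and 7 bases downstream, with 30.5%, 10.1%, 10.1% and 47.8% of the arm over the 3 libraries. Mir344g, with 11.2 bits, was placed by its distance from the anchored hairpins. So were Mir344f, Mir344h-1, Mir344h-2 and Mir344i, with at most 0.8 bits. Reads of Mir344g had no twin in the cluster, but some values were not whole, such as 56.5 at its most abundant 3p start in replicate 2. Mir344i had 4, 0 and 0 reads. Mir344f, Mir344h-1 and Mir344h-2 had 0 reads in each library, which allows up to 3 reads.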

How the data were processed

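Small RNA-seq of 3 MIN6 libraries was analysed from the alignments. Each deposited value is an expected count of reads for 1 distinct alignment, without normalization, in which the authors split a read evenly between equally good loci. Per the submitters' processing notes, cutadapt and Bowtie were used with mm9. Mismatched reads were sought only near exact ones. Alignments marked as exact ended 1 base early, which was corrected. RPM was computed from all mapped reads, and from all exact reads where only exact alignments were kept, with Python 3.11.15, numpy 2.4.6, pandas 2.3.3, scipy 1.17.1, numba and matplotlib. Placement used loci with at least 15 reads and a threshold of 20 bits, and was tested on simulated data, where a placed hairpin could lie some bases off its true position. No test between groups was run, since there was 1 condition. The members and lists were chosen with earlier results of these data known. Named genes were the 7 hairpins with each start of at least 5% of its arm, other Mir344 genes, miRNAs with the same seed, the 3 hairpins nearest in level, and Mir375. The alternatives were length, exactness, single-locus reads, denominator, placement threshold and leaving out a replicate.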

Additional observations from a re-analysis of the deposited data

Results flagged for a closer look

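Gm23873 is a GENCODE hairpin between Mir344h-2 and Mir344b that is not among the named Mir344 genes. Gm23873 was counted among the listed hairpins of the span, but not in the family's levels above. It had 36.6, 30.1 and 24.2 RPM in replicates 1, 2 and 3, a mean of 30.29 ± 6.201 (SD, n = 3), against up to 0.324 RPM that a count of 0 allows. This was above Mir344b and Mir344c and below the divided level of Mir344d-1 in every library. With whole-number values only, Mir344d-1 had 13.9 RPM, below Gm23873. The reads were all from the 3p arm, had no twin at another hairpin, and 98.9% began at position 68895375 of chromosome 7 (mm9). Its placement rests on 10.3 bits and on its distance from the anchored hairpins. The first 22 bases from that start, read from the GENCODE hairpin (GRCm38) with the seed in capitals, are shown because this seed is not that of any member.
Gm23873 3p start: uGAUAUAGccaagcccgacugu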

How the results depend on the processing

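No paired analysis was possible because there was just 1 condition. Placement at 15 or 30 bits left every level as it was, and the mean without 1 of 3 replicates cannot move by 1 SD, so neither speaks for stability. Of the 54 other alternative values for 12 results, 23 moved by less than 1 SD between replicates. With exact alignments only, which also replaced the mapped reads in the denominator by the exact reads, the family had 160 per 1000000 exact reads, Mir344 50.5, Mir344b 5.55, Mir344d-1 30.9, Mir344d-2 31.1 and Mir344d-3 33.8, Mir344b was below Mir344c (8.50), the 3p share was 98.1%, the share at the most abundant start 98.45% and the whole-number share 58.1%. With whole-number values only, the family had 97.6 RPM, Mir344 34.6, Mir344d-1 13.9, Mir344d-2 14.04 and Mir344d-3 16.9 RPM, the 3p share was 96.8%, the share at the most abundant start 98.9% and the share of mismatching 3′ ends 10.6%. With the reads in hairpins placed at 20 bits as denominator, which leaves Mir344b, Mir344c and Mir344e out of the total, the family had 268, Mir344 79.4, Mir344b 12.1, Mir344c 11.2, Mir344d-1 53.4, Mir344d-2 54.0 and Mir344d-3 57.7. The next alternatives were chosen after seeing the data. With the reads of every identical copy added, the family had 353 RPM with each read counted once, Mir344 had 123, Mir344d-1 207, Mir344d-2 209 and Mir344d-3 211 RPM, and the 3p share was 99.1%. Counting only reads without a twin gave a single-locus share of 10.2%. With members placed by sequence alone, Mir344b, Mir344c and Mir344e had no value and the family had 190 RPM. Apart from what each setting leaves out or divides by, the cause of these changes was not tested. The order of the hairpins by mean level was as reported with reads of 18 to 25 nt and with whole-number values. It changed with exact alignments and with added copies, the latter of which put the Mir344d hairpins above Mir344. Whole-number values made up 79.8%, 61.6% and 21.6% of the Mir344 reads in replicates 1, 2 and 3. For Mir344d-3 the share in replicate 3 was 42.1%, so the order by whole-number values need not hold within each library. Leaving out 1 replicate gave 196 to 214 RPM for the family, 98.4 to 98.6% for the 3p arm, 19.7 to 20.6% for mismatching ends and 40.7 to 49.9% for whole-number reads. Depth limits Mir344e, with at most 3 reads per library.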

Other observations

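Gm22466, another GENCODE hairpin between Mir344d-2 and Mir344d-3, had 0, 4.33 and 7.17 divided reads in replicates 1, 2 and 3. All began at position 68853619 of chromosome 7 (mm9), with the seed AUAUAAC of miR-344d-3p. The GENCODE hairpins Gm25533, Gm23917 and Gm24923, within or next to the cluster, had 0 reads. In Mir344g, 49.2 ± 4.77% of the reads at the most abundant 3p start ended in a mismatch, and 30.8 ± 2.28% ended in 1 mismatching uridine (SD, n = 3).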
